A study of Mus musculus with 22 samples.

Results

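Ky and 7 genes of sarcomere maintenance (Igfn1, Flnc, Unc45b, Smyd1, Hspb7, Hspb8 and Bag3) were followed in the ventricles of mouse embryos that lacked LIN9, SAV1 or both in the heart. The 8 genes were taken by their symbols from the 48709 gene identifiers of the count tables, and all 8 were present in both tables. Ky was selected on its log2 fold change between LIN9 KO and LIN9 wt ventricles, where it had the largest decrease among called genes with a mean of at least 5 CPM and no overlap between the groups, so its values in that comparison are given as a description without a test. The 7 others were chosen by name as genes that work with Ky in the upkeep of the sarcomere, with earlier results of these data known.

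RNA-seq of E13.5 ventricles had been performed in 2 separate experiments and gave 18 libraries, 3 for each genotype. All embryos carried Nkx2.5-Cre, which is active in cardiac precursor cells, so that cells of the ventricle from other lineages kept intact alleles. The first experiment compared LIN9 wt with LIN9 KO ventricles (6 libraries), both with wild-type Sav1. The second compared LIN9 wt Sav1 wt, Sav1 KO (LIN9 wt), LIN9 KO (Sav1 wt) and double KO ventricles (12 libraries). LIN9 KO stands for Lin9 fl/fl with loxP sites around exon 7, and Sav1 KO for Sav1 fl/fl with loxP sites around exon 3. The paper gives the control embryos as Lin9 fl/+, which the sample labels list as wild-type. The labels call the libraries triplicates and do not tie them to single embryos, and the paper calls each of the experiments a biological replicate done in triplicate. The p-values therefore measure the spread between these libraries, which may be technical. The 4 ChIP-seq samples of the series were not analysed here.

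LIN9 is a subunit of MuvB, a complex that binds cell cycle promoters, and SAV1 is a scaffold of the Hippo kinases, which restrain the coactivator YAP. The sarcomere is the contractile unit of muscle, and its proteins are kept in working order by scaffolds at the Z-disc, by chaperones that fold myosin, and by small heat shock proteins that hold damaged filaments for refolding or degradation. Ky encodes the kyphoscoliosis peptidase, a transglutaminase-like protein of the Z-disc whose loss causes a muscular dystrophy with curvature of the spine in the ky mouse. IGFN1 and filamin C are binding partners of KY. UNC45B folds the myosin head together with HSP90, and SMYD1 is a muscle methyltransferase that acts in thick filament assembly. HSPB7 and HSPB8 are small heat shock proteins of heart and muscle, and BAG3 links HSPB8 to HSP70 for the autophagic removal of damaged filamin.

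The libraries of the first experiment held 9485599 to 9615274 counts, where 1 count is worth 0.103 to 0.108 CPM (counts scaled to the TMM-normalised library size). Those of the second were shallower, at 2770741 to 2999877 counts and 0.328 to 0.373 CPM for 1 count. Genes were tested with the quasi-likelihood test of edgeR, and every adjusted p is a Benjamini-Hochberg value over all genes tested. The most abundant gene was the haemoglobin gene Hbb-y in LIN9 KO replicates 1 and 2 of the first and LIN9 KO replicate 2 of the second experiment, and the ribosomal Rn18s-rs5 in LIN9 KO replicate 3 and double KO replicates 2 and 3 of the second. Leaving out any single library changed no call of the 8 genes other than that of Flnc described with its values, but Igfn1 fell below the filter on low counts without LIN9 KO replicate 3 or double KO replicate 1 of the second experiment and has no call there. Lin9 itself was at 25.6 CPM in LIN9 wt and 20.6 CPM in LIN9 KO ventricles of the first experiment (adjusted p = 0.13). In the second it was at 26.8 CPM in LIN9 wt Sav1 wt and 15.5 CPM in LIN9 KO ventricles (adjusted p = 0.0027), and at 25.4 CPM in Sav1 KO and 22.7 CPM in double KO ventricles (adjusted p = 0.586). Sav1 was at 57.5 CPM in LIN9 wt Sav1 wt and 40.7 CPM in Sav1 KO ventricles (adjusted p = 0.318), and at 49.7 CPM in LIN9 KO and 42.3 CPM in double KO ventricles (adjusted p = 0.464). The counts cover whole genes, including the exons outside the deleted ones, and are therefore a weak check of the genotypes. Of the exonic sequence of Sav1, 25.4% also lies under Atl1 on the other strand, and the strand setting of the counting is not given.

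The question put to the LIN9 comparisons was which of the 8 genes change when MuvB is disabled. In the first experiment 5 of the 7 genes other than Ky were past the threshold (adjusted p under 0.05 over 19752 genes), all of them lower on the TMM scale, beside 9.78% of all tested genes that were lower and 20.9% that were called in either direction. They were Flnc, Unc45b, Smyd1, Hspb7 and Hspb8, while Bag3 and Igfn1 were not called. Ky, on which the choice was made, is left out of this count, and since the others were also chosen with results known, their count describes these genes only. Again in the second experiment, with Sav1 wt, these 5 genes were called lower, beside 10.5% of 17675 tested genes that were lower and 23.2% called either way. The call of Flnc there was lost with the replicate number as a block (adjusted p = 0.119, edgeR) and without several single libraries. In double KO against Sav1 KO ventricles the 5 genes and Ky were called lower, beside 11.6% lower and 23.4% called either way. The summed cardiomyocyte markers also fell in these comparisons, from 21860 to 23082 CPM in LIN9 wt to 10851 to 14496 CPM in LIN9 KO libraries of the first experiment. Relative to these markers, Flnc, Smyd1 and Hspb8 turned positive in all 3 comparisons. Hspb7 and Unc45b lost their calls in the first experiment (adjusted p = 0.126 and 0.251, edgeR) and kept them, at smaller decreases, in the second. Since the tissue is bulk ventricle, fewer cells of a type and less RNA per cell cannot be told apart in these counts. All 8 genes had passed the filter of a mean count above 1 in both tables. The median log2 fold change of the 7 genes other than Ky was -0.62, -0.63 and -0.64 in the 3 comparisons, beside medians of 0.016, 0.0086 and 0.032 over all tested genes.

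**Figure D1:**
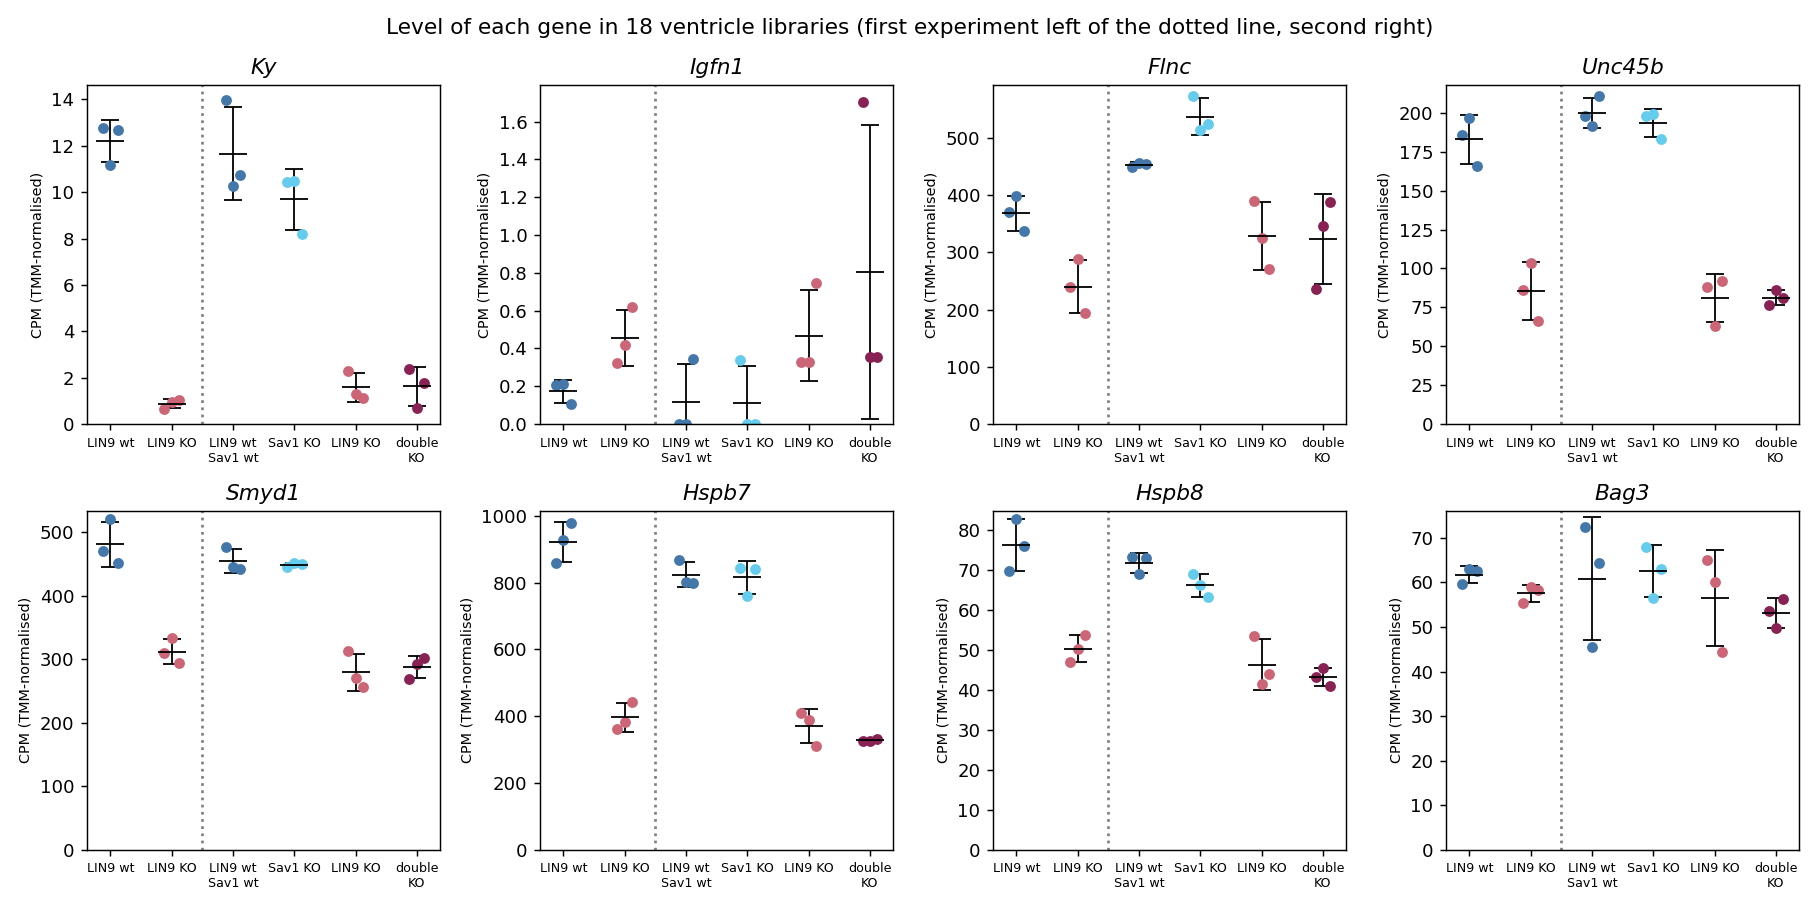
Level in CPM (TMM-normalised) of each of the 8 genes in 18 libraries, in linear panels that start at 0, with the mean and SD of 3 libraries per genotype. Ky, Flnc, Unc45b, Smyd1, Hspb7 and Hspb8 sit lower in LIN9 KO and double KO than in the matching LIN9 wt libraries on this scale, whereas relative to cardiomyocyte markers Flnc, Smyd1 and Hspb8 turn positive, and Bag3 stays between 44.4 and 72.5 CPM.

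Ky lies on chromosome 9 (GRCm38, 102505750 to 102546239, plus strand; ENSMUSG00000035606) and its annotated exons share no sequence with another gene. The 3 LIN9 wt libraries of the first experiment held 124, 106 and 122 counts of Ky (12.8, 11.2 and 12.7 CPM), and the 3 LIN9 KO libraries 6, 9 and 10 counts (0.651, 0.944 and 1.03 CPM). Every LIN9 KO library was below every LIN9 wt library. The mean fell from 12.2 ± 0.897 to 0.874 ± 0.198 CPM (SD, n = 3). The fitted decrease was 13.7-fold, a log2 fold change of -3.78. In the second experiment LIN9 wt Sav1 wt ventricles held 42, 30 and 31 counts (14, 10.3 and 10.7 CPM) and LIN9 KO ventricles 7, 4 and 3 counts (2.3, 1.31 and 1.12 CPM). These groups did not overlap either, with a log2 fold change of -2.84. Both values used the contrast on which Ky was selected.

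The double KO and Sav1 KO libraries did not enter the fold change on which Ky was chosen. They did enter the mean of at least 5 CPM and the joint fit behind the calls of the second experiment. Sav1 KO ventricles held 31, 31 and 24 counts of Ky (10.4, 10.5 and 8.19 CPM) and double KO ventricles 7, 2 and 5 counts (2.39, 0.704 and 1.78 CPM). Every double KO library was below every Sav1 KO library. The mean fell from 9.7 ± 1.31 to 1.62 ± 0.852 CPM (SD, n = 3), a log2 fold change of -2.54 (SE 0.36, adjusted p = 5.98e-06, edgeR quasi-likelihood test). The order of the means in the second experiment was LIN9 wt Sav1 wt, Sav1 KO, double KO and LIN9 KO. The libraries of the first pair of neighbours in this order overlapped, as did those of the last pair, and the large step lay between Sav1 KO and double KO.

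Among called genes with a mean of at least 5 CPM and no overlap between the groups, Ky had the largest decrease in both experiments. The next gene was Slc26a10 with a log2 fold change of -2.54 in the first experiment, and Cacng6 with -2.51 in the second. Without the limit on the mean and on overlap, Ky was at rank 10 and rank 17 of the called decreases.

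Since LIN9 is part of a promoter-binding complex, the promoters of the 8 genes were taken from RefSeq (GRCm38.p6, 250 bases before to 50 after each start; 8 of 8 genes matched, Flnc with 2 starts). The cell cycle homology region (CHR), the element bound by MuvB, was searched on both strands as TTTGAA and as TTCGAA. The TTTGAA form was found in the windows of Ky, Smyd1 and Hspb8, that is in 3 of 8 genes, and in 17.9% of 32851 promoters of the table. The TTCGAA form was found in none of the 8 and in 1.56% of all. The 3 stretches with a match are shown as 100 bases each, with the match in capitals. In the stretches of Ky and Smyd1 the match is on the other strand and reads TTCAAA.
Ky, chr9:102505888-102505987, plus strand: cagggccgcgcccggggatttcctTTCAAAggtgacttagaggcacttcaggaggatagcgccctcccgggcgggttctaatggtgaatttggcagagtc
Smyd1, chr6:71262432-71262531, minus strand: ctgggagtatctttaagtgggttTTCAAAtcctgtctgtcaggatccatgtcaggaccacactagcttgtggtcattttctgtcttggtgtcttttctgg
Hspb8, chr5:116422905-116423004, minus strand: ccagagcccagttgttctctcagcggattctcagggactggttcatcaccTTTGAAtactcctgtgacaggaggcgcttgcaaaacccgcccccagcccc

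The matches began 226 bases before the RefSeq start in Ky, 227 before in Smyd1 and 90 before in Hspb8. In Ky and Smyd1 the RefSeq start used lies inside the GENCODE gene span given in this report. These matches are therefore upstream of the RefSeq start but within that span, which begins at 102505750 in Ky and, on the minus strand, at 71322233 in Smyd1. The TEAD core GGAATG, through which YAP is brought to DNA, was found in Flnc and Hspb7 and in 14.7% of all promoters, on either strand. The E-box CANNTG was found in 5 of the 8 genes, and in 72.3% of all promoters. The heat shock element, the MEF2 motif and the CArG box of SRF were found in none of the 8 windows, and in 0.603%, 3.19% and 1.63% of all promoters. A match describes these letters in this window, and occupancy was not analysed here.

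The binding partners of KY differed in level and in change. Igfn1 (chromosome 1, 135953578 to 136006342, minus strand) was close to the detection limit. It had 2, 2 and 1 counts in LIN9 wt and 3, 4 and 6 counts in LIN9 KO libraries of the first experiment. The second experiment gave 0, 0 and 1 counts in LIN9 wt Sav1 wt, 1, 1 and 2 in LIN9 KO, 1, 0 and 0 in Sav1 KO, and 5, 1 and 1 in double KO ventricles. A library with 0 counts allows a level of up to 0.983 to 1.12 CPM (3 counts, counting error only). On the TMM scale Igfn1 was not called in the first experiment (log2 fold change 1.33, adjusted p = 0.192, edgeR), though its groups did not overlap. Relative to cardiomyocyte markers it was called higher there (2.18, adjusted p = 0.0098), as were 14367 of 19752 genes. Counts this low leave both values uncertain. In the second experiment Igfn1 passed the filter on low counts only through the LIN9 KO and double KO libraries, where it was higher, so no p is given for it there.

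Flnc (chromosome 6, 29433256 to 29461883, plus strand), which crosslinks actin at the Z-disc, was at 371, 398 and 337 CPM in LIN9 wt and at 240, 288 and 194 CPM in LIN9 KO ventricles of the first experiment. The groups did not overlap, and the log2 fold change was -0.62 (SE 0.14, adjusted p = 0.00446). In the second experiment Flnc was at 449, 457 and 455 CPM in LIN9 wt Sav1 wt and at 389, 324 and 271 CPM in LIN9 KO ventricles, with a wide spread among the LIN9 KO libraries. The log2 fold change was -0.47 (SE 0.15, adjusted p = 0.0401), and this call was lost (adjusted p from 0.0532 to 0.0911) without any single one of LIN9 wt Sav1 wt replicates 1, 2 and 3 or LIN9 KO replicates 2 and 3. It was also lost with the replicate number as a block (adjusted p = 0.119), and it held in DESeq2 (adjusted p = 0.0143). In Sav1 KO ventricles Flnc was at 574, 513 and 525 CPM and in double KO ventricles at 236, 346 and 388 CPM, a log2 fold change of -0.73 (SE 0.15, adjusted p = 0.00264). The fall of Flnc held under these alternatives in the first experiment and against Sav1 KO, but all 3 values turned positive when scaled on cardiomyocyte markers.

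Unc45b and Smyd1, genes of myosin folding and thick filament assembly, fell in each LIN9 comparison on the TMM scale. On the marker scale Unc45b was at -0.22 without a call in the first experiment, and at -0.42 and -0.31 with calls in the second. Smyd1 was above 0 on that scale in all 3 (0.28, 0.18 and 0.30). Unc45b (chromosome 11, 82910550 to 82943403, plus strand) was at 186, 197 and 166 CPM in LIN9 wt and at 86.3, 103 and 66.5 CPM in LIN9 KO ventricles of the first experiment. All LIN9 KO libraries were below all LIN9 wt libraries, with a log2 fold change of -1.10 (SE 0.14, adjusted p = 0.0001). Unc45b in the second experiment was at 198, 192 and 211 CPM in LIN9 wt Sav1 wt and at 88.4, 63.3 and 91.7 CPM in LIN9 KO ventricles (log2 fold change -1.30, SE 0.11, adjusted p = 2.24e-09). The values were 198, 199 and 183 CPM in Sav1 KO and 76.7, 86.3 and 80.8 CPM in double KO ventricles, with a log2 fold change of -1.25 (SE 0.11, adjusted p = 4.29e-09). Of its exonic sequence 9.04% lies under antisense transcripts on the other strand, and the strand setting of the counting is not given in the sources used here.

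Smyd1 (chromosome 6, 71213940 to 71322233, minus strand) was the more abundant of the pair and fell less. Its levels were 471, 520 and 452 CPM in LIN9 wt and 309, 333 and 294 CPM in LIN9 KO ventricles of the first experiment, without overlap. The log2 fold change was -0.62 (SE 0.11, adjusted p = 0.000992). Smyd1 in the second experiment was at 476, 445 and 443 CPM in LIN9 wt Sav1 wt and 313, 270 and 257 CPM in LIN9 KO ventricles (log2 fold change -0.70, SE 0.10, adjusted p = 3.14e-06). Against Sav1 KO ventricles (446, 451 and 450 CPM) the double KO ventricles (268, 293 and 302 CPM) gave -0.64 (SE 0.10, adjusted p = 1.1e-05). Among the 6 genotype groups, the 3 Sav1 KO libraries lay closest together.

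Of the small heat shock proteins and their co-chaperone, Hspb7 and Hspb8 were called on the TMM scale and Bag3 was not. Hspb7 (chromosome 4, 141420779 to 141425311, plus strand), a cardiovascular small heat shock protein that binds filamin C, was at 859, 929 and 978 CPM in LIN9 wt and 363, 382 and 444 CPM in LIN9 KO ventricles of the first experiment. This is a 2.33-fold decrease, larger than the spread of either group (log2 fold change -1.22, SE 0.12, adjusted p = 9.9e-06). Hspb7 in the second experiment was at 868, 803 and 800 CPM in LIN9 wt Sav1 wt and 409, 389 and 312 CPM in LIN9 KO ventricles (log2 fold change -1.16, SE 0.10, adjusted p = 2.34e-09). Sav1 KO ventricles were at 845, 760 and 842 CPM and double KO ventricles at 324, 326 and 332 CPM (log2 fold change -1.32, SE 0.10, adjusted p = 2.1e-10). The double KO libraries were closer to one another than those of any other genotype for this gene.

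Hspb8 (chromosome 5, 116408491 to 116422864, minus strand), the partner of BAG3, was at 69.6, 82.6 and 76.1 CPM in LIN9 wt and 47, 50.2 and 53.7 CPM in LIN9 KO ventricles of the first experiment (log2 fold change -0.60, SE 0.10, adjusted p = 0.000806). With Sav1 wt in the second experiment it was at 73.1, 68.9 and 73 CPM in LIN9 wt Sav1 wt and 53.6, 41.3 and 44 CPM in LIN9 KO ventricles (log2 fold change -0.63, SE 0.12, adjusted p = 0.000196). The double KO ventricles (43.3, 45.4 and 40.9 CPM) were below the Sav1 KO ventricles (69, 66.2 and 63.1 CPM) by a log2 fold change of -0.61 (SE 0.12, adjusted p = 0.000332). In each of the 3 comparisons the groups of Hspb8 did not overlap on the TMM scale, whereas relative to cardiomyocyte markers the values were 0.31, 0.24 and 0.34, the last of which was called (adjusted p = 0.0197).

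Bag3 (chromosome 7, 128523616 to 128546981, plus strand) was called in none of the LIN9 comparisons on the TMM scale, and was called higher in all 3 relative to cardiomyocyte markers (0.81, 0.77 and 0.71), as most genes were on that scale. In the first experiment it was at 59.5, 63 and 62.5 CPM in LIN9 wt and at 55.4, 58.9 and 58.3 CPM in LIN9 KO ventricles (log2 fold change -0.10, 95% interval from -0.30 to 0.10). The second experiment gave 72.5, 45.6 and 64.3 CPM in LIN9 wt Sav1 wt and 65.1, 60 and 44.4 CPM in LIN9 KO ventricles, which overlapped (log2 fold change -0.10, 95% interval from -0.42 to 0.21). Against Sav1 KO ventricles (68, 56.4 and 63.1 CPM) the double KO ventricles (53.5, 49.7 and 56.2 CPM) gave -0.23 (95% interval from -0.55 to 0.08). In this comparison and in the first experiment the groups of Bag3 did not overlap, by a narrow margin and without a call. The difference between Bag3 and Hspb8 was not tested, and their intervals overlapped in both comparisons of the second experiment but not in the first experiment.

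**Figure D2:**
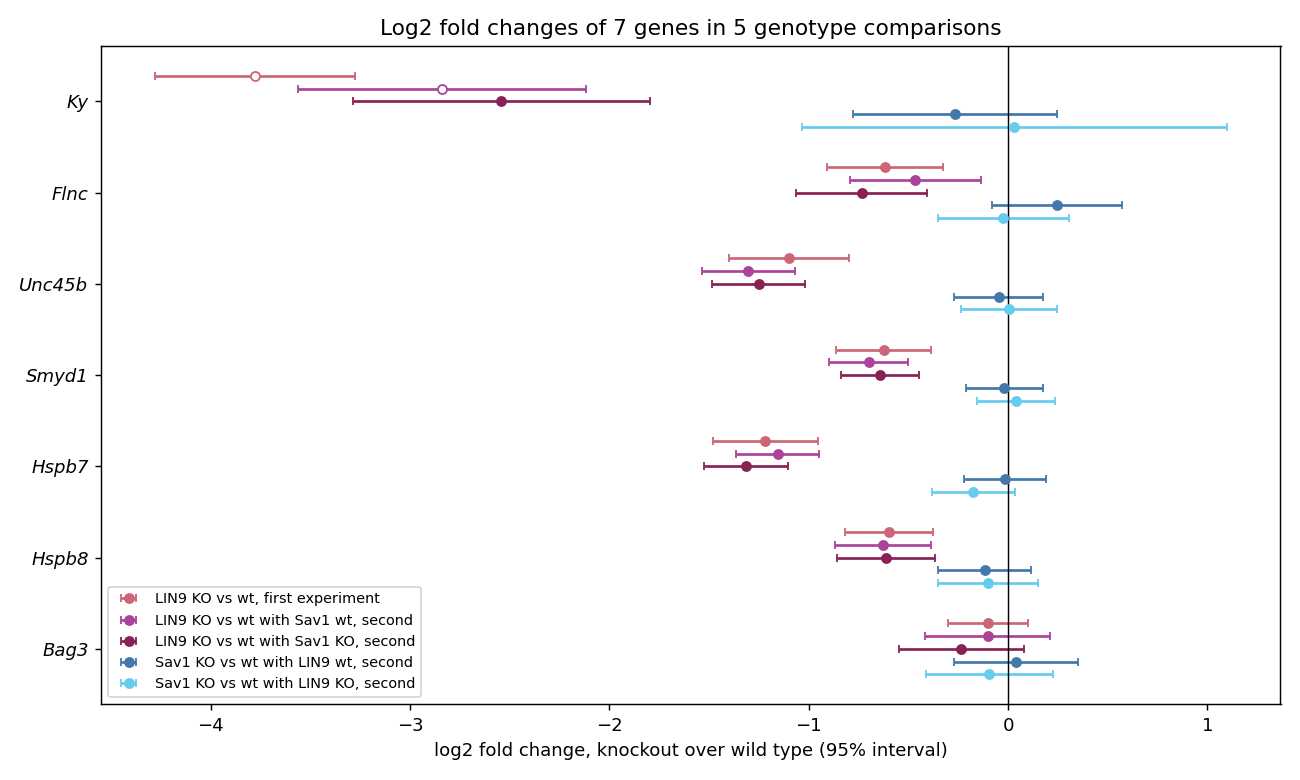
Log2 fold change of knockout over wild type with its 95% interval (x axis) for 7 genes in 5 genotype comparisons, after TMM scaling. Igfn1 is left out for its low counts. Open symbols mark the values on which Ky was chosen, whose intervals do not allow for that choice. The 3 LIN9 comparisons lie between -0.47 and -3.78 for all genes but Bag3 (Flnc, Smyd1 and Hspb8 turn positive when scaled on cardiomyocyte markers), and the intervals of both Sav1 comparisons include 0.

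Levels between the genes were compared per kilobase of exonic sequence. In LIN9 wt ventricles of the first experiment Hspb7 was the highest at 333 ± 21.7 CPM per kb, followed by Smyd1 at 106 ± 7.8 (SD, n = 3). Unc45b (40.7 ± 3.47), Flnc (39.2 ± 3.26) and Hspb8 (39 ± 3.34) came next and differed from one another by less than their spread. Bag3 was at 24.1 ± 0.739, Ky at 2.08 ± 0.153 and Igfn1 at 0.0193 ± 0.00671 CPM per kb. In LIN9 wt Sav1 wt ventricles of the second experiment the order was the same except that Flnc (48.3 ± 0.46) was above Unc45b (44.5 ± 2.17).

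Cell type markers moved with the LIN9 genotype. Beside the values of the first experiment given above, the summed level of the 15 cardiomyocyte markers in the second was 22904 to 24087 CPM in LIN9 wt Sav1 wt, 23977 to 25142 CPM in Sav1 KO, 11679 to 14039 CPM in LIN9 KO and 11518 to 14071 CPM in double KO libraries. Of the 12 markers tested, 7 were lower and none higher in each LIN9 comparison, beside 9.78%, 10.5% and 11.6% of all genes that were lower, among them the troponins Tnnt2, Tnni1 and Tnni3, the myosin light chains Myl2 and Myl3, Myh7, and the transcription factor gene Nkx2-5. Gata4, a transcription factor of the early heart, had log2 fold changes of 0.03, -0.03 and -0.18 and was not called. Actc1, Tnnc1 and Pln, which cardiomyocytes express strongly, were listed at 0 in all 18 libraries.

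Erythroid, epicardial and macrophage markers were higher in LIN9 KO libraries. The erythroid markers summed to 2073 to 3702 CPM in LIN9 wt and 16512 to 42148 CPM in LIN9 KO libraries of the first experiment, and 8 of 8 tested were higher in each LIN9 comparison. The epicardial and fibroblast markers summed to 1873 to 2168 CPM and 3993 to 4321 CPM, with 8 of 9 higher. Macrophage markers summed to 76.6 to 82.1 CPM in LIN9 wt and 141 to 167 CPM in LIN9 KO libraries, with 6 of 7 higher. Smooth muscle (2 of 6 higher, 1 lower), endothelial (2 of 7 higher) and atrial markers (2 of 7 higher) showed fewer calls in the first experiment, where 20.9% of all genes were called either way. Of the skeletal muscle markers, which bear on Ky as a gene of skeletal muscle, Myf5 was at 0, Myod1 had at most 5 counts in any library, and the sum was 5.25 to 6.85 CPM in LIN9 wt and 12.9 to 44.4 CPM in LIN9 KO libraries. This sum is mostly Tnnt3, a fast skeletal troponin, which reached 40.5 CPM, and of 8 skeletal markers tested in the first experiment 1 was higher and 7 were not called (median log2 fold change -0.30). With Sav1 wt in the second experiment 2 of 5 tested were higher (median 0.89). The sum was 3.77 to 6.98 CPM in LIN9 wt Sav1 wt and 22.7 to 23.9 CPM in LIN9 KO libraries. In double KO against Sav1 KO ventricles 1 of 5 tested was higher (median -0.60). The part of these cells in the changes of the 8 genes was not tested.

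To describe the genes relative to the cardiomyocyte markers, the counts were also scaled on the sum of these markers, an alternative chosen after the data had been seen. This sum is not a share of cells, since the markers themselves differed, from -1.48 for Myl2 to 0.43 for Myl7 in the first experiment. This moved the median log2 fold change of all genes to 0.91, 0.88 and 0.96 in the 3 LIN9 comparisons, so that a gene which kept pace with the cardiomyocyte markers is at 0 and one which kept pace with the average gene is near those medians. On this scale Ky still had log2 fold changes of -2.90, -1.98 and -1.61, of which the last, against Sav1 KO, could be tested (adjusted p = 0.000781). Hspb7 was at -0.30, -0.28 and -0.36 (adjusted p = 0.126, 0.0119 and 0.00173) and Unc45b at -0.22, -0.42 and -0.31 (adjusted p = 0.251, 0.00638 and 0.037). Smyd1 (0.28, 0.18 and 0.30), Hspb8 (0.31, 0.24 and 0.34) and Flnc (0.27, 0.40 and 0.19) turned positive, and Bag3 was at 0.81, 0.77 and 0.71 (adjusted p = 2.24e-05, 0.000123 and 0.000259). Of these positive values, Flnc with Sav1 wt (adjusted p = 0.00273) and Smyd1 and Hspb8 with Sav1 KO (adjusted p = 0.00331 and 0.0197) were past the threshold. These calls and those of Bag3 stand beside 14367 of 19752, 12039 of 17675 and 13108 of 17675 genes that were called higher on this scale in the 3 comparisons. Hspb7 and Unc45b were below 0 in all 3 comparisons and past the threshold in both comparisons of the second experiment, and Bag3 lay near the median of all genes.

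**Figure D3:**
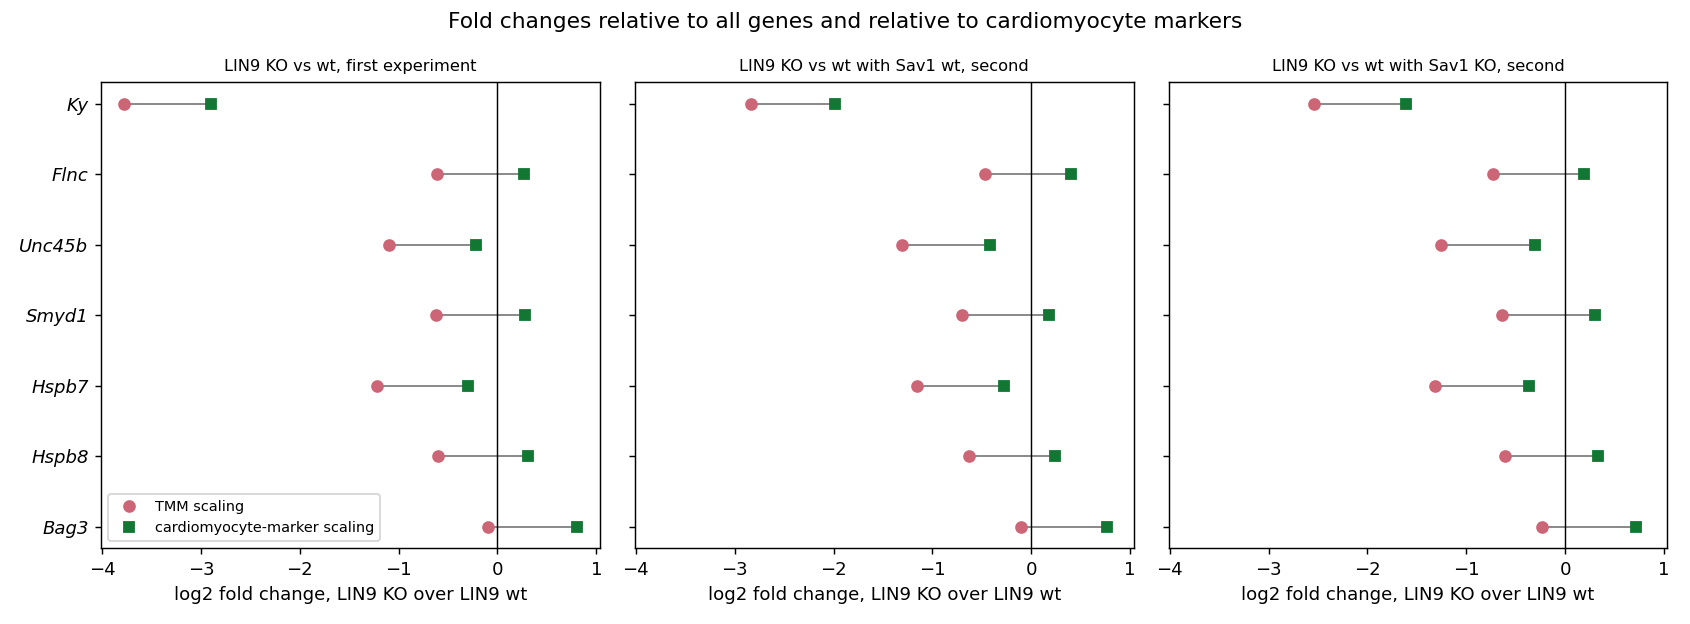
Log2 fold change of LIN9 KO over LIN9 wt (x axis) for 7 genes in 3 comparisons, with TMM scaling (circles) and with scaling on the summed cardiomyocyte markers (squares). With the marker scaling Ky stays between -2.90 and -1.61, Hspb7 and Unc45b stay below 0, and Flnc, Smyd1, Hspb8 and Bag3 lie above 0.

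The Sav1 comparisons asked whether the genes respond to the loss of Hippo signalling and whether that response depends on LIN9. Left out here are Igfn1, which has no p in the second experiment, and Ky, which was chosen on some of these libraries. None of the other genes was called between Sav1 KO and LIN9 wt Sav1 wt ventricles by edgeR, beside 0.017% of all tested genes. Their count was 0 at an unadjusted p under 0.05 and 0 in DESeq2. None of them was called between double KO and LIN9 KO ventricles, beside 0.0113% of all tested genes. Their count was again 0 at an unadjusted p under 0.05 and 0 in DESeq2, which gave only 3 of the 8 genes an adjusted p. The gene with the lowest unadjusted p for Sav1 with LIN9 wt was Flnc, at 454 ± 4.33 against 537 ± 32.1 CPM (SD, n = 3). Its groups did not overlap, but its log2 fold change of 0.24 had a 95% interval from -0.08 to 0.57 (edgeR, unadjusted p = 0.131). Ky had -0.27 (95% interval from -0.78 to 0.25) with LIN9 wt, and 0.03 (from -1.03 to 1.10) with LIN9 KO, where counts of 2 to 7 leave a wide interval. For Unc45b, Smyd1, Hspb7 and Hspb8 the 95% intervals of both Sav1 effects lay between -0.38 and 0.25.

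The interaction is the Sav1 effect with LIN9 KO minus that with LIN9 wt. Igfn1 and Ky were again left out, and the interaction was called for none of the other genes (0 at an unadjusted p under 0.05, 0 in DESeq2). It was called for 0% of the 17675 tested genes (1156 at an unadjusted p under 0.05 by edgeR, 0 calls in DESeq2). The narrowest interval was that of Smyd1, at 0.06 (95% interval from -0.22 to 0.33). For Flnc it was -0.27 (from -0.73 to 0.20) and for Hspb7 -0.16 (from -0.45 to 0.13). These intervals leave room for differences of that size, and Ky, whose interaction shares libraries with the contrast that chose it, was at 0.30 (from -0.90 to 1.5) as a description. Without single libraries this value ranged from -0.085 (without double KO replicate 1) to 0.69 (without LIN9 KO replicate 1).

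Related genes were then described by list, with counts past the threshold in the first and the second experiment (LIN9 KO with Sav1 wt) on the TMM scale. Each count stands beside the share of all tested genes, which was 9.78% lower and 20.9% called either way in the first, and 10.5% lower and 23.2% called either way in the second. Of the 25 neighbours of KY and filamin C at the Z-disc, 23 were tested in the first experiment, where 7 were lower and 4 higher, and 21 in the second, where 8 were lower and 1 higher. Those lower included Tcap (log2 fold change -1.17 in the first experiment), the titin cap, Synpo2l (-1.14), Ldb3 (-1.004), a Z-disc PDZ protein, and Actn2 (-0.80), the alpha-actinin of the Z-disc. Scaled on cardiomyocyte markers, Tcap, Synpo2l and Ldb3 stayed below 0 without a call and Actn2 turned to 0.08. The list's median was -0.17 and -0.29, beside 0.016 and 0.0086 for all genes.

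The small heat shock proteins outside the 8 genes were lower on the TMM scale in 4 of 6 tested genes in the first and 5 of 6 in the second experiment, beside 9.78% and 10.5% of all genes, with none higher and medians of -0.57 and -0.78. Hspb6, a muscle small heat shock protein, had -1.44 in the first experiment and stayed lower on the cardiomyocyte-marker scale (-0.54). Hspb1 (-0.73), Hspb2 (-0.66) and Cryab (-0.49), the alpha-B crystallin chaperone of desmin, turned positive on that scale.

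Of 13 tested genes of the autophagy list around BAG3, 3 were higher and none lower in the first experiment, and 3 were higher and 2 lower in the second, beside 20.9% and 23.2% of all genes called either way, with medians of 0.07 and 0.15. Between double KO and Sav1 KO ventricles 1 was higher and 4 were lower (23.4% of all genes called either way). Hspa1b, an inducible HSP70, rose from 4.83 ± 0.524 to 24.7 ± 2.5 CPM (SD, n = 3) in the first experiment (log2 fold change 2.35, adjusted p = 3.29e-07). With Sav1 wt in the second it had 2.50 (adjusted p = 0.0254, edgeR), with LIN9 KO libraries spread from 8.57 to 44.9 CPM (22.4 ± 19.7, SD, n = 3). In double KO against Sav1 KO ventricles it had 2.12, without overlap of the groups and without a call (adjusted p = 0.0684). Hspa1a, a near-identical copy, had 2.55 in the first experiment (adjusted p = 0.00104) and was not called in the second (1.32 and 1.35). Reads may be shared between the copies, which was not tested, so the split between them is uncertain. Sqstm1, the autophagy receptor p62, had 0.71 (adjusted p = 0.000262). In the first experiment Hspa1b and Sqstm1 were also higher on the cardiomyocyte-marker scale. The 10 other genes of the list were not called in the first experiment.

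Among the 17 tested genes of myosin folding and thick filament assembly, 5 were lower and 1 higher in the first experiment and 7 lower and 1 higher in the second (medians -0.12 and -0.30), beside 20.9% and 23.2% of all genes called either way. Myh7 (-1.06), the beta myosin heavy chain, Naca (-0.74), Mybpc3 (-0.69), the cardiac myosin binding protein C, and Ptges3 (-0.34), the HSP90 co-chaperone p23, were lower on the TMM scale, and Naca, Mybpc3 and Ptges3 turned positive when scaled on cardiomyocyte markers. Myh7 is itself one of the summed markers, so its value on that scale is not given. In the first experiment the call of Ptges3 was lost without any one of LIN9 wt replicates 1, 2 and 3 and LIN9 KO replicates 1 and 2 (adjusted p from 0.0573 to 0.0853), and that of Mybpc3 without LIN9 wt replicate 2 (adjusted p = 0.0558), with log2 fold changes of -0.29 to -0.35 for Ptges3 and -0.64 for Mybpc3. Both were called lower in the second experiment (adjusted p = 0.00174 and 9.52e-06). Unc45a, the general form of the myosin chaperone, had 0.11 and was not called.

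Of the 4 other SMYD genes, Smyd2 alone was called, at -0.82 in the first experiment, and it turned to 0.09 on the cardiomyocyte-marker scale. Of the 10 muscle ubiquitin ligases and proteases, 4 were lower and none higher in the first experiment, and 4 lower and 3 higher in the second, beside 20.9% and 23.2% of all genes. The 4 were Trim63 (-0.92), the ligase MuRF1, Trim55 (-0.88), Fbxo40 (-0.66) and Asb2 (-0.58). On the cardiomyocyte-marker scale Trim63 and Trim55 were close to 0 and Fbxo40 and Asb2 turned positive. Some genes of the lists could not be tested for low counts, among them Xirp1, Myom1, Stub1 and Map1lc3b in both experiments. Since Actc1 and Tnnc1 are also listed at 0 in this heart tissue, such low counts are not read here as low expression.

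**Figure D4:**
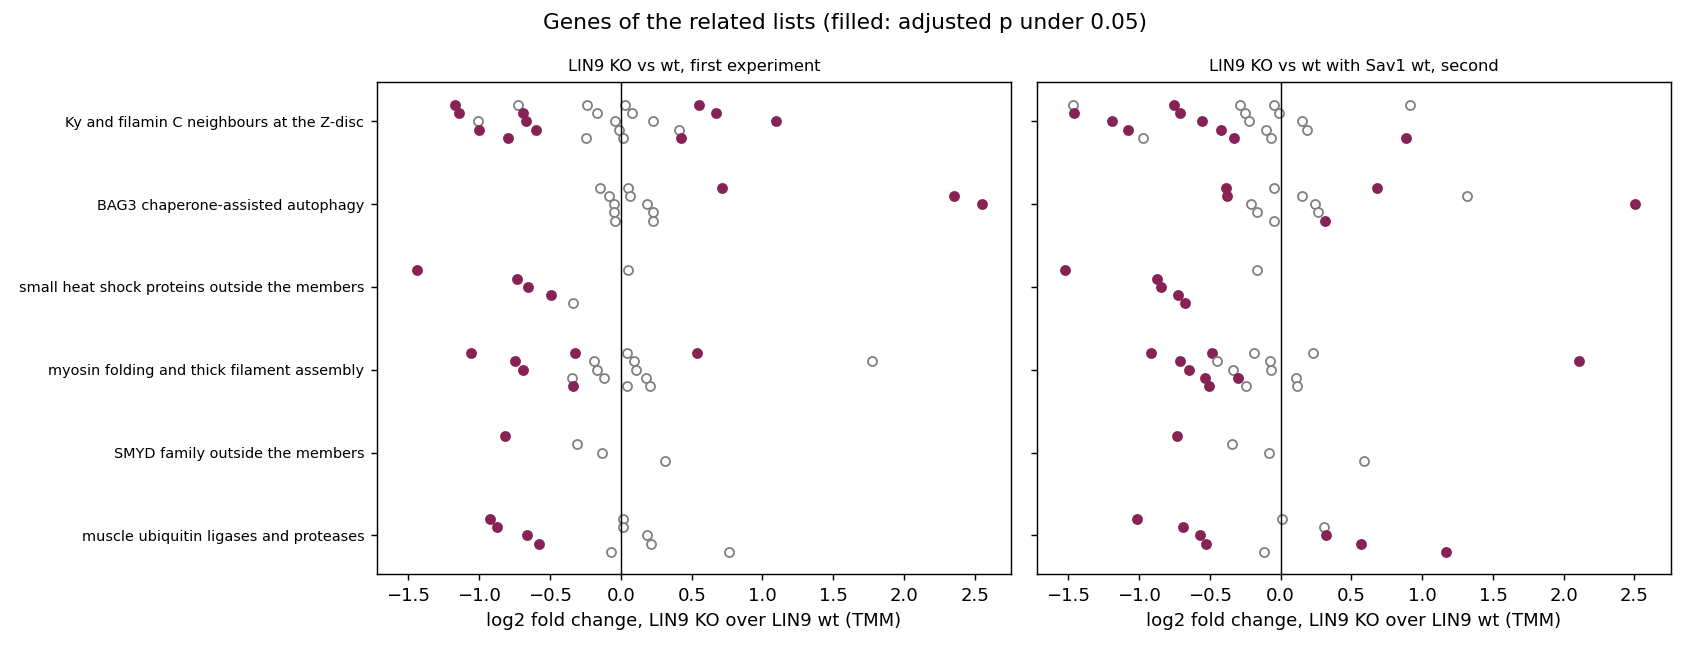
Log2 fold change of LIN9 KO over LIN9 wt on the TMM scale (x axis) for each tested gene of 6 lists, in the first experiment and with wild-type Sav1 in the second; filled points passed an adjusted p of 0.05. In the small heat shock list 4 and 5 of 6 genes are filled and all of these lie below 0, of which Hspb1, Hspb2 and Cryab lie above 0 in the first experiment when scaled on cardiomyocyte markers (not run for these genes in the second), and the BAG3 list holds the points with the largest increase.

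The pattern of Ky over the 18 libraries was compared with that of 12118 genes with a mean of at least 5 CPM in both experiments, on log2 CPM centred on the mean of each experiment. The most alike were Gm5514 (Pearson r = 0.98), Crat (0.97), the carnitine acetyltransferase, Pmpcb (0.97), a mitochondrial peptidase subunit, Acaa2 (0.97), a thiolase of fatty acid oxidation, and Sod2 (0.97), the manganese superoxide dismutase. Of the partners, Hspb7 had r = 0.96 (rank 27), Smyd1 0.94 (rank 130), Hspb8 0.93 (rank 148), Unc45b 0.91 (rank 297), Flnc 0.79 (rank 1335) and Bag3 0.45 (rank 3886). By Spearman correlation the first 4 of these were at ranks 523, 1346, 835 and 1289. The libraries form 2 clusters by LIN9 genotype, and these values mostly reflect the step between them. Within the 9 LIN9 wt libraries r was 0.85 for Gm5514, 0.56 for Crat, -0.15 for Pmpcb, 0.52 for Acaa2 and 0.19 for Sod2. Among the partners it was 0.14 for Hspb7, 0.11 for Smyd1, 0.40 for Hspb8, 0.18 for Unc45b, -0.54 for Flnc and 0.30 for Bag3. Within the 9 LIN9 KO and double KO libraries the values of the partners were 0.44, 0.18, 0.35, -0.14, -0.11 and 0.60 in the same order, with Ky at 2 to 10 counts there. In these libraries r was 0.25 for Gm5514, 0.56 for Crat, 0.80 for Pmpcb, 0.42 for Acaa2 and 0.78 for Sod2.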

How the data were processed

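Gene counts of 18 RNA-seq libraries from mouse E13.5 ventricles were used. The values are whole counts per Ensembl gene, as deposited. The authors aligned the reads with TopHat2 (2.1.0) and Bowtie2 to mm10 (GRCm38.p6), reduced all libraries to the mappable read number of the smallest, and counted with summarizeOverlaps. The overlap mode and strand setting are not given in the sources used here. Tables of the authors' own fold changes and p-values were not used. A total of 4 duplicated rows was dropped from each table, and 0 columns of per-sample values were left unused.

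Counts were analysed with R 4.3.3 and edgeR 4.0.16 (TMM, robust quasi-likelihood fit, genes with a mean count above 1, Benjamini-Hochberg adjustment over all tested genes, threshold 0.05). The first experiment was fitted on its 6 libraries, and the second on all 12 in 1 fit with contrasts of group means. Log2 CPM used a prior count of 2. The test was checked on simulated data. Alternatives were DESeq2 (1.42.0) and its size factors, no filter, the replicate number as a block, fits on the 6 libraries compared, no robust estimates, leaving out each library, and scaling on cardiomyocyte markers. Positions and exonic lengths came from GENCODE M21.

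The 8 genes, the lists and the markers were chosen with earlier results of these data known. Named besides the 8 genes were Lin9, Sav1, the 5 genes most correlated with Ky, and up to 4 genes per list with the largest change in the first experiment among those called in both LIN9 comparisons with wild-type Sav1. The markers, Unc45a and the genes next to Ky in the order of decreases were added. Whole-gene counts of 3 or fewer in a library were read as the detection floor.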

Additional observations from a re-analysis of the deposited data

How the results depend on the processing

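Flnc, Unc45b, Smyd1, Hspb7 and Hspb8 kept direction and call in the LIN9 comparisons under DESeq2 size factors, no filter on low counts and DESeq2. They also did so in fits on the 6 libraries compared and without each library, except Flnc with Sav1 wt in the second experiment, which lost its call without single libraries. Of 600 values of the 8 genes 42 with a test changed sign, and of those that kept it 8 lost a call and 2 gained one. The 2 gained were Igfn1 with marker scaling, in the first experiment (2.18) and in double KO against Sav1 KO (3.26), at low counts. The latter is not read as a result. Igfn1 passed the filter there only through the LIN9 KO and double KO libraries, where it was higher. Counts of 4131, 4103 and 4132 calls in the LIN9 comparisons became 14458, 12122 and 13173 with marker scaling, which moved the median of all genes by 0.89, 0.87 and 0.93, and the first ranged from 2722 to 4223 without single replicates. The Sav1 calls rested on few genes. With LIN9 wt the 3 calls became 22 without the filter, 31 in the fit of 6 libraries and 0 to 2 without single replicates. With LIN9 KO the 2 calls became 309 without the filter, 77 in DESeq2, 0 in the fit of 6 libraries, 0 with marker scaling and 0 to 378 without single replicates (378 without LIN9 KO replicate 3). The interaction gave 17 calls without the filter and 0 to 64 without single replicates (64 without LIN9 KO replicate 3). The cause was not tested.

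With marker scaling these log2 fold changes turned positive, in the 3 LIN9 comparisons in order. They were 0.27, 0.40 and 0.19 for Flnc, 0.81, 0.77 and 0.71 for Bag3, 0.31, 0.24 and 0.34 for Hspb8 and 0.28, 0.18 and 0.30 for Smyd1. In the first experiment Actn2 (0.083), Hspb1 (0.16), Hspb2 (0.23), Cryab (0.40), Naca (0.17), Mybpc3 (0.18), Ptges3 (0.58), Smyd2 (0.086), Fbxo40 (0.25) and Asb2 (0.31) did so too. The Sav1 effect turned to -0.042 for Bag3 with LIN9 wt and to -0.014 for Unc45b with LIN9 KO.

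Some values changed sign without single replicates. Bag3 ranged from -0.31 to 0.026 in LIN9 KO with Sav1 wt. With LIN9 wt the Sav1 effect ranged from -0.052 to 0.027 for Hspb7, -0.050 to 0.018 for Smyd1, -0.15 to 0.19 for Bag3 and -1.88 to 1.86 for Igfn1. With LIN9 KO it ranged from -0.36 to 0.41 for Ky, -0.18 to 0.15 for Flnc, -0.24 to 0.025 for Bag3, -0.16 to 0.026 for Hspb8, -0.13 to 0.092 for Unc45b and -0.025 to 0.13 for Smyd1. The interaction ranged from -0.085 to 0.69 for Ky, -0.27 to 0.075 for Bag3, -1.08 to 2.67 for Igfn1, -0.049 to 0.15 for Hspb8 and -0.089 to 0.15 for Unc45b.

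With the replicate number as a block, the 6 comparisons gave 5001, 4370, 4488, 2, 84 and 0 calls. Of the 8 genes only the call of Flnc with Sav1 wt in the second experiment changed. Over all tested genes, no pair of groups had every same-number correlation above 0.1 (-0.051 to 0.393), and over genes of at least 5 CPM 3 pairs of groups of the second experiment had. By Spearman correlation 1 of the 5 genes most like Ky was shared. Depth limits Igfn1 in all libraries and Ky in LIN9 KO and double KO libraries of the second experiment.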
